A study of Mus musculus with 6 samples.

Results

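The 38 genes described here encode proteins of synaptic vesicle release, voltage-gated sodium and potassium channels, ionotropic glutamate receptors and inhibitory transmission, together with the adhesion molecule Ncam1. They were taken by gene symbol from a list of names, drawn up with earlier results of these data known, out of 55573 genes in the deposited count table. All 38 were found in it, and each had at least 1 count in some library. Cells had been sorted as retinal ganglion cells (RGCs, which carry the retina's output to the brain) from eyes of C57BL/6 mice in which both Myh9 and Myh10 are floxed, and their total RNA was sequenced. Both groups carried the floxed alleles. One group had received AAV2-GFP in the vitreous 2 weeks before sacrifice (labelled WT, 3 libraries) and the other AAV2-Cre (labelled dKO, 3 libraries), and each library pooled 3 retinas from 3 mice. The sources used here give neither the promoter of either vector nor the age of the mice. Nor do the labels say that the pools of a group came from separate mice, so the spread on which p-values rest may be technical.

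Transmitter is released when a vesicle SNARE (Vamp proteins) zips up with plasma membrane SNAREs (syntaxins and Snap25), a step held by complexins and triggered when synaptotagmins bind calcium. Photoreceptors and bipolar cells release glutamate from ribbon synapses, which are known to use Stx3, Cplx3, Cplx4 and the vesicular glutamate transporter Slc17a7 (VGLUT1). The conventional synapses of amacrine cells use Stx1a, Cplx1 and Cplx2, and RGCs load glutamate with Slc17a6 (VGLUT2) rather than Slc17a7. RGCs fire action potentials through the sodium channels Scn1a, Scn2a and Scn8a, and they receive glutamate through AMPA and NMDA receptors. Inhibitory amacrine cells make GABA with Gad1 and Gad2, take up glycine with Slc6a9 (GlyT1), and fill vesicles with either transmitter through Slc32a1.

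The libraries held 4569880 to 6146226 counts, but a single ribosomal RNA gene row took 89.8% to 92.8% of 5 of them and 64.2% of dKO replicate 3. Counts outside that row numbered 346037 to 576060 in those 5 libraries and 1636581 in dKO replicate 3, which therefore has the least counting error and stands apart. CPM below means counts scaled to 1e+06 counts outside that row. Myh9 was at 582 ± 42.3 CPM in the WT libraries and 574 ± 28.9 in the dKO libraries, and Myh10 at 169.8 ± 21.4 and 165 ± 28.5 (SD, 3 libraries each), with edgeR adjusted p of 0.908 and 0.735. Neither targeted gene was therefore detectably lower, and since whole-gene counts include exons outside the floxed part they do not check the deletion. Directions below refer to the libraries labelled dKO. Defining RGC genes were scarce: Pou4f2 had 0 counts in WT and 7 in dKO, Pou4f1 had 1 and 13, and Rbpms had 22 and 47. These are raw counts, and the dKO group is the deeper. Scaled for depth, the ratio was 1.03 for Rbpms and 6.27 for Pou4f1 (95% exact binomial interval 0.942 to 267). The 12 RGC markers together took 0.0228% to 0.0266% of counts outside the row in WT and 0.0307% to 0.0312% in dKO, against 3.00% to 3.10% and 3.12% to 3.38% for 10 Müller glia and astrocyte markers. Of the RGC marker counts, Nefl gave 26 of 318 in WT and 170 of 827 in dKO. Without Nefl the RGC marker sums overlap between the groups.

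The 38 genes together took overlapping shares of the RNA in both groups, an overlap that depended on Ncam1. Some roles within that share did not overlap. Values are given below in the order of replicates 1 to 3. The counts of the 38 genes summed to 1286, 963 and 1146 in the WT libraries and to 1521, 1245 and 4531 in the dKO libraries. Outside the ribosomal RNA row they made up 0.265% ± 0.0114 of counts for WT against 0.272% ± 0.00685 for dKO (SD, 3 libraries each), a ratio of 1.02. By role, the summed share was higher in every dKO library than in every WT library for sodium channels (2.11 times), inhibitory transmitter genes (3.41 times), calcium sensors with complexins (1.23 times) and vesicle proteins (1.13 times). Most of the inhibitory sum came from Slc6a9 alone, with 14 of its 24 WT counts and 113 of its 143 dKO counts. Ncam1, which alone gave 826 of the 3395 WT counts of the 38 genes, was at 0.672 times its WT share. It took 0.0643%, 0.0763% and 0.0546% of counts in WT and 0.0460%, 0.0397% and 0.0455% in dKO. With Ncam1 left out, the summed share of the other members was higher in every dKO library than in every WT library. SNARE genes (0.878 times), potassium channels (1.04), AMPA receptors (1.07) and NMDA receptors (1.11) had overlapping groups. No test was run on these sums, because the genes were chosen with results of these data known.

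**Figure D1:**
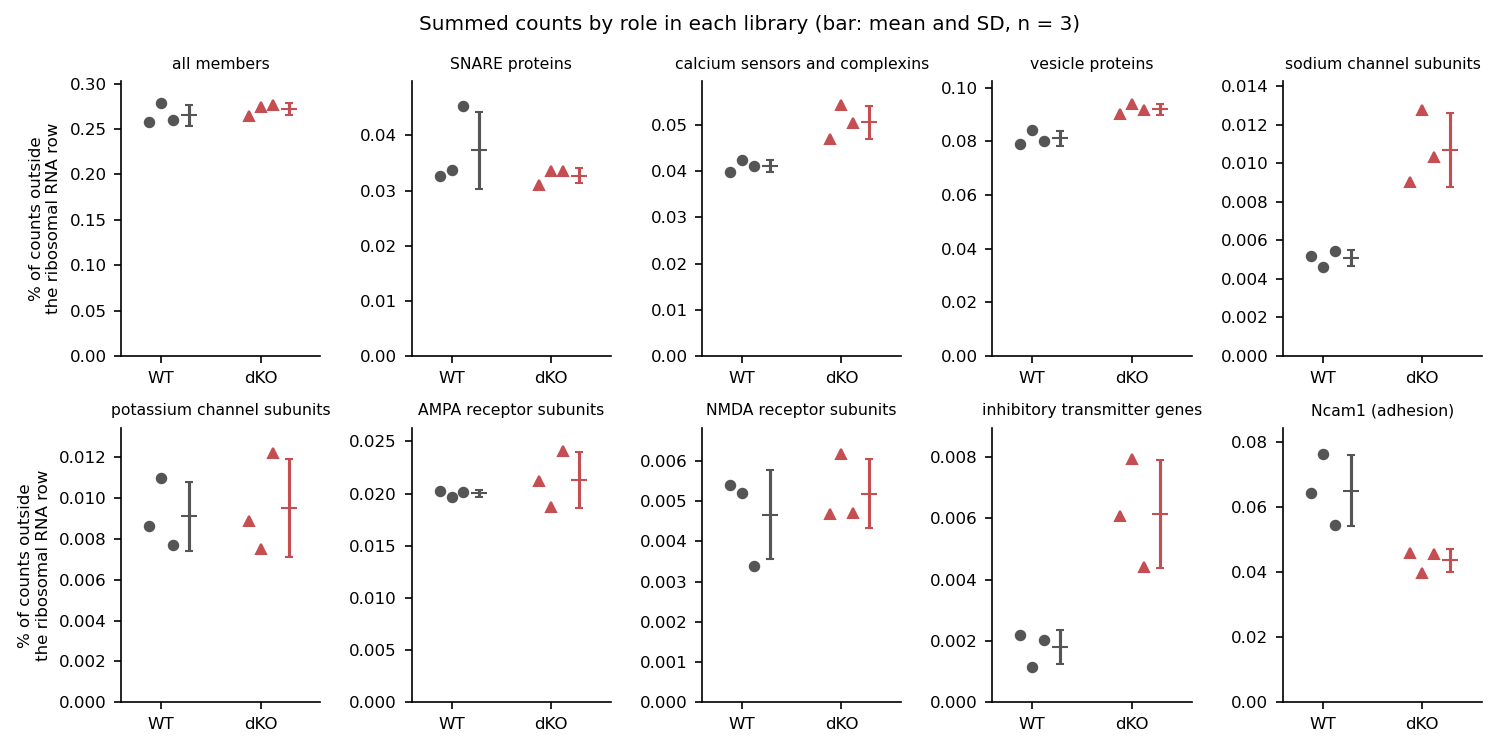
Summed counts of all 38 genes and of each role group as a percent of counts outside the ribosomal RNA row (y axis, from 0) in the 3 WT (circles) and 3 dKO libraries (triangles), with mean and SD beside them. The total, which includes Ncam1, overlaps between groups, and without Ncam1 it would not. The sums of sodium channel and of inhibitory transmitter genes are higher in all 3 dKO libraries and Ncam1 is lower in all 3. Most counts of the inhibitory sum come from Slc6a9.

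Levels of different genes are compared per kilobase of annotated exon. In WT, Ncam1 led with 75.1 ± 12.5 CPM per kb, followed by Syp at 44.4 ± 3.97 and Slc17a7 at 40.6 ± 2.89 (SD, n = 3 each), and the last pair did not differ beyond their spread. Cplx3 (29.9 ± 4.99), Syt1 (29.8 ± 0.637), Stx3 (27.7 ± 6.61), Sv2b (25.9 ± 4.60), Rab3a (24.8 ± 4.48) and Cplx4 (23.0 ± 3.76) followed, a run in which neighbours did not differ beyond their spread. Gria4 (18.6 ± 2.59), Vamp2 (18.2 ± 3.91), Snap25 (17.5 ± 2.81) and Sv2a (14.9 ± 3.21) came next. Every other member lay at or below Kcna2 (6.98 ± 1.41). The lowest were Slc32a1, with no count in WT, Grin2a (0.0909 ± 0.0826) and Kcna1 (0.140 ± 0.242). In dKO the order at the top was Ncam1 (50.5 ± 4.04), Slc17a7 (49.7 ± 4.04), Cplx3 (43.2 ± 4.77) and Syp (41.9 ± 6.79), so that the first 2 were indistinguishable there.

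**Figure D2:**
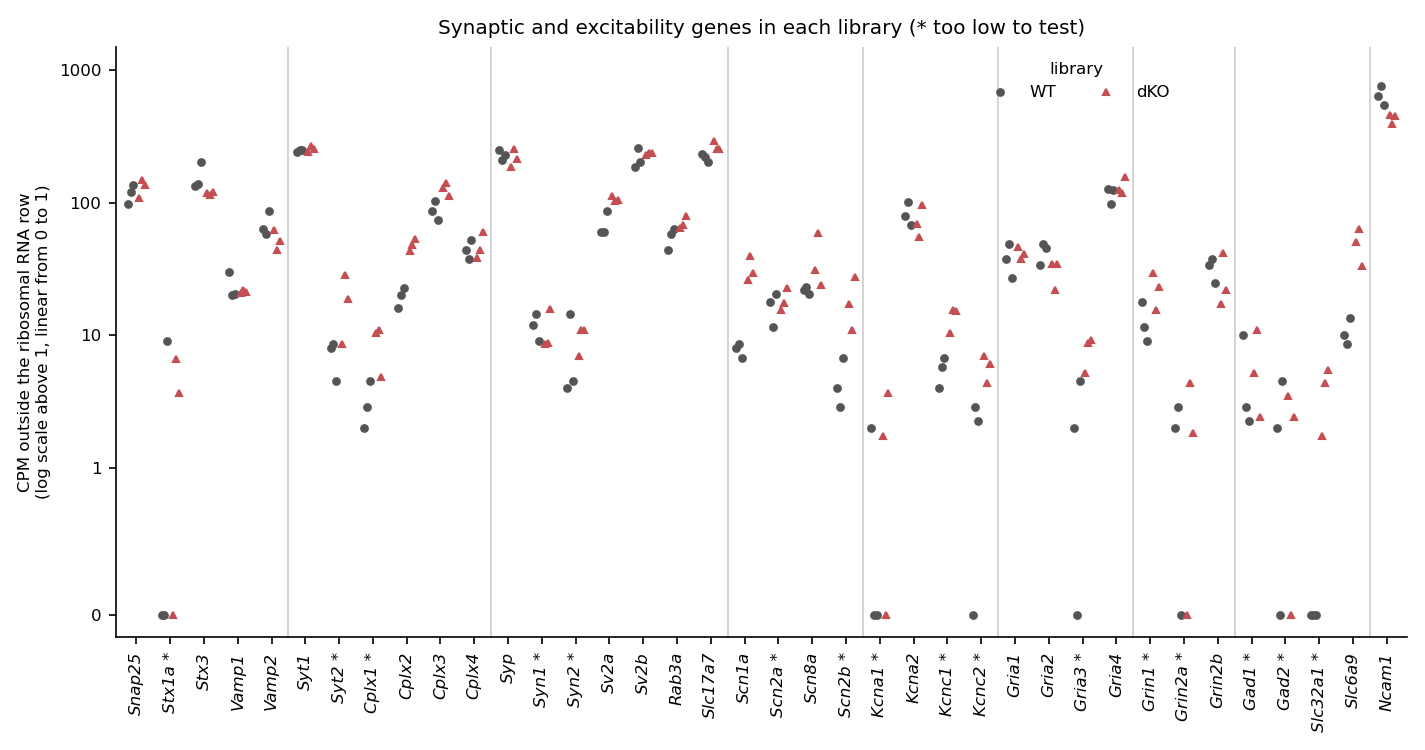
CPM outside the ribosomal RNA row for each of the 38 genes (x axis, grouped by role) in the 3 WT (circles) and 3 dKO libraries (triangles), on an axis that is logarithmic above 1 and linear from 0 to 1. The 16 starred genes were too low to test, and Scn1a, Slc6a9 and Cplx2 show a gap between the groups.

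For the dKO against WT test, edgeR's low-count filter kept 8444 genes, among them 22 of the 38. Of these 22, 3 were higher (Slc6a9, Scn1a and Cplx2) and 1 was lower (Ncam1) at an adjusted p under 0.05 (edgeR quasi-likelihood test, Benjamini-Hochberg over all genes tested), and 18 did not pass. Over all genes tested, 1.92% were called, 0.734% as higher and 1.18% as lower. None of the WT libraries reached the filter's minimum for Slc6a9, Scn1a or Cplx2, which passed it through the dKO libraries alone, so the count of 3 among genes tested is a description and not support. The median log2 fold change of the 22 was 0.14, against -0.0007 for all genes tested. The 22 include the 3 genes kept through the dKO libraries alone, and the members were chosen with results known. This median is therefore also a description and not support. Among all 38 members, the dKO values lay above all WT values in CPM for 15 and below for 2. Of all 21821 genes with a count, 6.38% lay above and 4.82% below. Those include the genes below the filter, so they are not matched to the members for abundance. No share among genes of similar abundance was taken, and the gap does not measure an excess. DESeq2 called 1 higher and 1 lower, against 0.308% of genes with an adjusted p in each direction over the table.

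**Figure D3:**
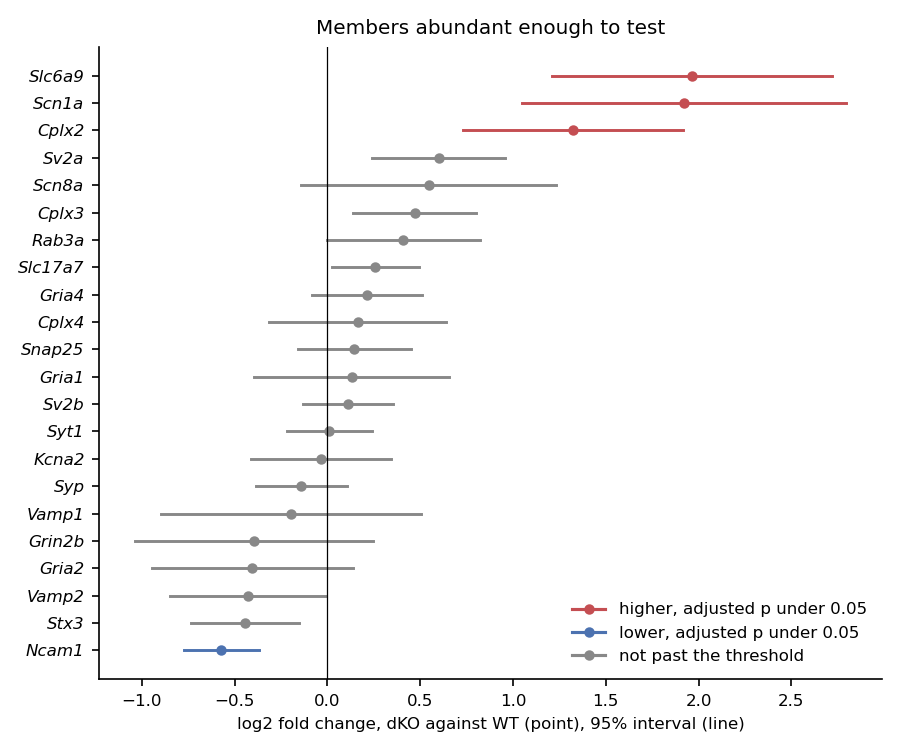
Fitted log2 fold change of dKO against WT (points) with 95% interval (lines) for the 22 genes that could be tested. Slc6a9, Scn1a and Cplx2 lie above 0 and Ncam1 below it past the threshold, and most others have intervals that include 0.

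Slc6a9, the glycine transporter GlyT1, passed the threshold with the smallest p of the 3 members called higher. It had 5, 3 and 6 counts in the WT libraries and 29, 29 and 55 in the dKO libraries, or 10.01, 8.67 and 13.6 CPM against 50.3, 64.0 and 33.6. All 3 dKO libraries were above all 3 WT libraries, and dKO replicate 3, the deepest, was the lowest of its group. The log2 fold change was 1.96 ± 0.38 (SE, edgeR adjusted p = 0.000316), a fold of 3.90 with a 95% interval of 2.31 to 6.58. With limma-voom the adjusted p was 0.0641. Exons of Slc6a9 overlap 1429 bases of Ccdc24 (5 counts in all libraries) and 46 bases of B4galt2 (57 counts) on the opposite strand, and since the strand setting of the counting is not given, reads there cannot be told apart. The other inhibitory genes stayed near 0. Gad1 and Gad2, the GABA-synthesizing enzymes, had 7 and 3 counts over the 3 WT libraries and 12 and 6 over the 3 dKO libraries. Their depth-scaled ratios were 0.827 and 0.965 (95% exact binomial intervals 0.300 to 2.48 and 0.206 to 5.96). Such ratios pool counts, so dKO replicate 3 weighs most. The mean CPM of Gad1 went the other way, 5.06 ± 4.30 in WT and 6.23 ± 4.38 in dKO (SD, 3 libraries each). Slc32a1, the vesicular GABA and glycine transporter, had 0 counts in each WT library and 1, 2 and 9 in dKO. Its depth-scaled ratio is 1.93 if the WT group is set to a floor of 3 counts, which is not a lower bound. The exact binomial interval of its ratio starts lower, at 1.34, and its edgeR adjusted p in the fit without the filter was 0.342.

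Scn1a, the pore-forming sodium channel Nav1.1, had 4, 3 and 3 counts in WT and 15, 18 and 48 in dKO, or 8.01, 8.67 and 6.80 CPM against 26.0, 39.7 and 29.3. The groups did not overlap. The log2 fold change was 1.92 ± 0.44 (SE, edgeR adjusted p = 0.00417), a fold of 3.79 with a 95% interval of 2.07 to 6.95. Without WT replicate 1 the adjusted p was 0.0519, and DESeq2 gave 0.111. Scn2b, an auxiliary sodium channel subunit, had 2, 1 and 3 counts in WT and 10, 5 and 45 in dKO. It was too low for the filter, and its depth-scaled ratio was 4.83 (95% exact binomial interval 2.09 to 13.7, which like those below covers counting error only). Fitted without the filter, Scn2b had an edgeR adjusted p of 0.00853, in a fit that called 0.38% of 21821 genes higher and 0.445% lower. Scn8a (Nav1.6), with 22.0, 23.1 and 20.4 CPM in WT and 31.2, 59.6 and 23.8 in dKO, had a log2 fold change of 0.55 ± 0.35 (adjusted p = 0.551). Its dKO libraries all lay above WT, with dKO replicate 2 far above the other two. Scn2a (Nav1.2) had 9, 4 and 9 counts against 9, 8 and 37, and a ratio of 1.18 (0.709 to 2.04). Of the 4 sodium channel genes, Scn1a passed, Scn2b did so in the fit without the filter, and the intervals of Scn2a and Scn8a include no change. The intervals of Scn1a (fold 2.07 to 6.95) and Scn8a (0.906 to 2.35) overlap, and differences between these genes were not tested.

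Cplx2, a complexin of conventional synapses, had 8, 7 and 10 counts in WT and 25, 22 and 87 in dKO, or 16.0, 20.2 and 22.7 CPM against 43.4, 48.5 and 53.2. The lowest dKO library was well above the highest WT library. The log2 fold change was 1.32 ± 0.30 (SE, edgeR adjusted p = 0.00352), a fold of 2.50 with a 95% interval of 1.66 to 3.77. The adjusted p was 0.0894 without WT replicate 1, 0.0646 without dKO replicate 3 and 0.168 with DESeq2. Cplx1, the other conventional complexin, had 1, 1 and 2 counts in WT and 6, 5 and 8 in dKO, too few to test, with a ratio of 2.29 (0.762 to 9.26). Cplx3, a ribbon synapse complexin, had 43, 36 and 33 counts against 74, 64 and 185, and its log2 fold change was 0.47 ± 0.17 (edgeR adjusted p = 0.148). Its 113 to 141 CPM in dKO lay above the 74.8 to 104 of WT without passing the threshold. Cplx4, also of ribbon synapses, had 22, 13 and 23 counts against 22, 20 and 98, with overlapping CPM and a log2 fold change of 0.16 ± 0.24 (adjusted p = 0.842). As a share of all complexin counts, Cplx1 and Cplx2 together took 12.2%, 14.0% and 17.6% in the WT libraries and 24.4%, 24.3% and 25.1% in dKO. These are 29 of 199 counts over the WT group and 153 of 616 over the dKO group, and Cplx3 with Cplx4 held the majority in all 6 libraries.

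**Figure D4:**
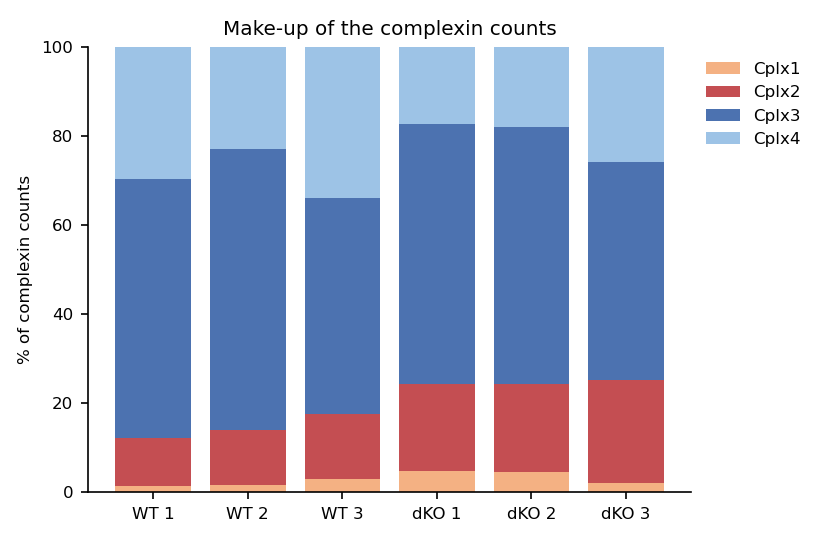
Share of the complexin counts (y axis, percent of the summed counts of Cplx1 to Cplx4) taken by each gene in each of the 6 libraries. Cplx3 and Cplx4 make up 82.4% to 87.8% in WT and 74.9% to 75.7% in dKO.

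The upstream sequences of Cplx2 and Scn1a, which rose, are shown with that of Syn1, which held 2 of the 4 motifs searched. They are RefSeq windows on GRCm38.p6 of up to 250 bases before a transcript start, trimmed where they enter the first exon of the counted gene, and capitals mark motif matches.
Cplx2 (chr13:54302306-54302555, + strand): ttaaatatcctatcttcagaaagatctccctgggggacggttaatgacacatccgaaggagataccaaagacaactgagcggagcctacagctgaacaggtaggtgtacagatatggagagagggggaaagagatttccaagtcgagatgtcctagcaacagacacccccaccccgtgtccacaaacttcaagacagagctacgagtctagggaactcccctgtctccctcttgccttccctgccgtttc
Scn1a (chr2:66440841-66441087, - strand): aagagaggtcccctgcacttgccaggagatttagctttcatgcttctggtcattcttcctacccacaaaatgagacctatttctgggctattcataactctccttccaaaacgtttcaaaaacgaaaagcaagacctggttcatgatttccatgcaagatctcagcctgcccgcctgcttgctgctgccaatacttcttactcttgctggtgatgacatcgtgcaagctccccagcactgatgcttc
Syn1 (chrX:20921005-20921168, - strand): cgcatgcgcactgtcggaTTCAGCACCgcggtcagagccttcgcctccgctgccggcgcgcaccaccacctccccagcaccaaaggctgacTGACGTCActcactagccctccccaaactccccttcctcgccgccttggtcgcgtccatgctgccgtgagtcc
The RefSeq start behind the Cplx2 window lies 68793 bases before the GENCODE gene. Both strands were searched for the Sp1 motif, GGGCGG, for the core promoter motif known as the Goldberg-Hogness element, TATAAA, for TTCAGCACC (the left part of RE1, the element bound by the neuronal gene repressor REST) and for TGACGTCA (cAMP response element). Windows were found for 29 of the 38 genes. The left part of RE1 was present in 0.301% of all 32851 windows and, among the members, only in that of Syn1, as was the cAMP response element (1.55% of all windows). The Sp1 motif was present for 14 of the 29 genes (15 of 43 windows, against 32.7% of all) and the Goldberg-Hogness element for 4 (5 of 43 windows, against 12.4%). The windows of Cplx2 and Scn1a held none of the 4, while Slc6a9, the other member called higher, whose windows lie in annotated exons and are not shown, was among the 14 with the Sp1 motif. A match is a run of letters and not evidence of binding.

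Among the calcium sensors, Syt1, the fast synaptotagmin of most synapses, was level between the groups with 242, 251 and 252 CPM in WT and 241, 269 and 254 in dKO (log2 fold change 0.011 ± 0.115, SE, edgeR adjusted p = 0.980). The 95% interval of its fold was 0.860 to 1.18. Syt2, its close relative, had 4, 3 and 2 counts in WT and 5, 13 and 31 in dKO, with a ratio of 2.63 (1.28 to 6.08), and the lowest dKO library barely exceeded the highest WT library (8.68 against 8.67 CPM). Syt1 therefore took 96.7% to 98.2% of the counts of this pair in WT and 90.4% to 96.5% in dKO.

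No SNARE gene passed the threshold. Stx3, the ribbon synapse syntaxin, had 134, 139 and 202 CPM in WT and 118, 115 and 121 in dKO, so that all dKO values were below WT, and WT replicate 3 stood highest (log2 fold change -0.44 ± 0.15, SE, edgeR adjusted p = 0.109). Vamp2, synaptobrevin 2, had 64.1, 57.8 and 86.1 CPM against 62.5, 44.1 and 51.9 (-0.43 ± 0.21, adjusted p = 0.388), with overlap. Snap25, the SNARE shared by both synapse types, had 98.1, 121 and 136 CPM against 109, 148 and 137 (0.15 ± 0.15, adjusted p = 0.765), and its fold had a 95% interval of 0.897 to 1.36. Vamp1 had 15, 7 and 9 counts against 12, 10 and 35 (adjusted p = 0.881). Stx1a, the conventional syntaxin, had 0, 0 and 4 counts in WT and 0, 3 and 6 in dKO, with a ratio of 1.09 (0.303 to 4.82). Stx3 thus held 95.7% to 100% of the Stx1a and Stx3 counts in WT and 94.5% to 100% in dKO.

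Of the vesicle proteins, none passed over all genes, although several lay higher in every dKO library. Sv2a, a vesicle glycoprotein of most synapses, had 60.1, 60.7 and 86.1 CPM in WT and 113, 104 and 105 in dKO (log2 fold change 0.60 ± 0.18, SE, edgeR adjusted p = 0.0621). It was past the threshold in 2 of 17 alternative fits, with upper-quartile scaling (adjusted p = 0.0442) and without WT replicate 3 (0.0215). In the rest it was not. Rab3a, the vesicle GTPase, had 44.1, 57.8 and 63.5 CPM against 64.2, 68.4 and 80.0 (0.41 ± 0.21, adjusted p = 0.404). Slc17a7 had 232, 223 and 202 CPM against 293, 256 and 255 (0.26 ± 0.12, adjusted p = 0.330). The groups of Rab3a and Slc17a7 were separated by small gaps only. Syp, the abundant vesicle protein synaptophysin, had 252, 211 and 231 CPM against 186, 256 and 213, overlapping, with a fold interval of 0.767 to 1.07. Sv2b, the vesicle glycoprotein known from ribbon synapses, had 186, 260 and 204 CPM against 229, 236 and 237, with an interval of 0.914 to 1.28. The synapsins Syn1 and Syn2, which tether vesicles at conventional but not ribbon synapses, had 15 and 9 counts over WT and 35 and 27 over dKO, with ratios of 1.13 (0.599 to 2.22) and 1.45 (0.661 to 3.50). Slc17a6, set beside Slc17a7 after its values were seen, had 2, 1 and 2 counts in WT and 7, 4 and 21 in dKO. Slc17a7 held 97.8% to 98.7% of the counts of the pair in WT and 95.2% to 96.7% in dKO.

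None of the glutamate receptor subunits tested (3 AMPA and 1 NMDA) passed the threshold, and Gria3, Grin1 and Grin2a were too low to test. Gria4 was the most abundant AMPA subunit, with 128, 98.3 and 125 CPM in WT and 125, 119 and 156 in dKO (log2 fold change 0.21 ± 0.15, SE, edgeR adjusted p = 0.610). Gria2, the subunit that makes AMPA receptors impermeable to calcium, had 34.0, 49.1 and 45.3 CPM against 34.7, 22.1 and 34.8 (-0.40 ± 0.27, adjusted p = 0.589). Gria1 had 38.1, 49.1 and 27.2 CPM against 46.9, 37.5 and 40.9 (0.13 ± 0.26, adjusted p = 0.895). The groups of all 3 overlapped. Gria3 had 1, 0 and 2 counts in WT and 3, 4 and 15 in dKO, with a ratio of 3.54 (1.06 to 18.5). Its lowest dKO library (5.21 CPM) lay above its highest WT library (4.53). Grin1, the NMDA subunit present in every such receptor, had 9, 4 and 4 counts against 17, 7 and 38, with overlapping CPM and a ratio of 1.76 (1.02 to 3.21). Grin2b had 34.0, 37.6 and 24.9 CPM against 17.4, 41.9 and 22.0 (-0.40 ± 0.32, adjusted p = 0.685). Grin2a had 2 counts over WT and 5 over dKO, with a ratio of 1.21 (0.198 to 12.7). The 95% interval for Grin2b ran from a fold of 0.487 to 1.18, on both sides of no change.

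Among potassium channels only Kcna2 (Kv1.2), found along axons, was abundant enough to test. It had 80.1, 101 and 68.0 CPM in WT and 69.4, 55.1 and 96.5 in dKO, which overlap (log2 fold change -0.033 ± 0.190, SE, edgeR adjusted p = 0.967). Its partner Kcna1 (Kv1.1) had 1 count over WT and 7 over dKO, with a ratio of 3.38 (0.434 to 152). The fast channels Kcnc1 (Kv3.1) and Kcnc2 (Kv3.2), which let neurons fire at high rates, had 2, 2 and 3 and 0, 1 and 1 counts in WT against 6, 7 and 25 and 4, 2 and 10 in dKO. Both lay above WT in every dKO library, with ratios of 2.62 (1.16 to 6.95) and 3.86 (0.908 to 34.6). Of the 16 members too low to test, 7 lay above WT in every dKO library and 9 overlapped. The 6.38% above and 4.82% below among all genes with a count are not matched to these members for abundance.

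Ncam1, a neural adhesion molecule made by neurons and glia, was the one member called lower. It had 321, 264 and 241 counts in the WT libraries and 265, 180 and 745 in the dKO libraries, or 643, 763 and 546 CPM against 460, 397 and 455. All dKO libraries were below all WT libraries. The log2 fold change was -0.57 ± 0.10 (SE, edgeR adjusted p = 7.4e-05), a fold of 0.672 with a 95% interval of 0.585 to 0.774. With 826 counts over WT and 1190 over dKO, Ncam1 rests on more reads than any other member, and DESeq2 also called it. Scaling by library totals, the ribosomal RNA row included, gave 0.65 for Ncam1, but that scaling moves the median of all genes tested to 1.21.

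**Figure D5:**
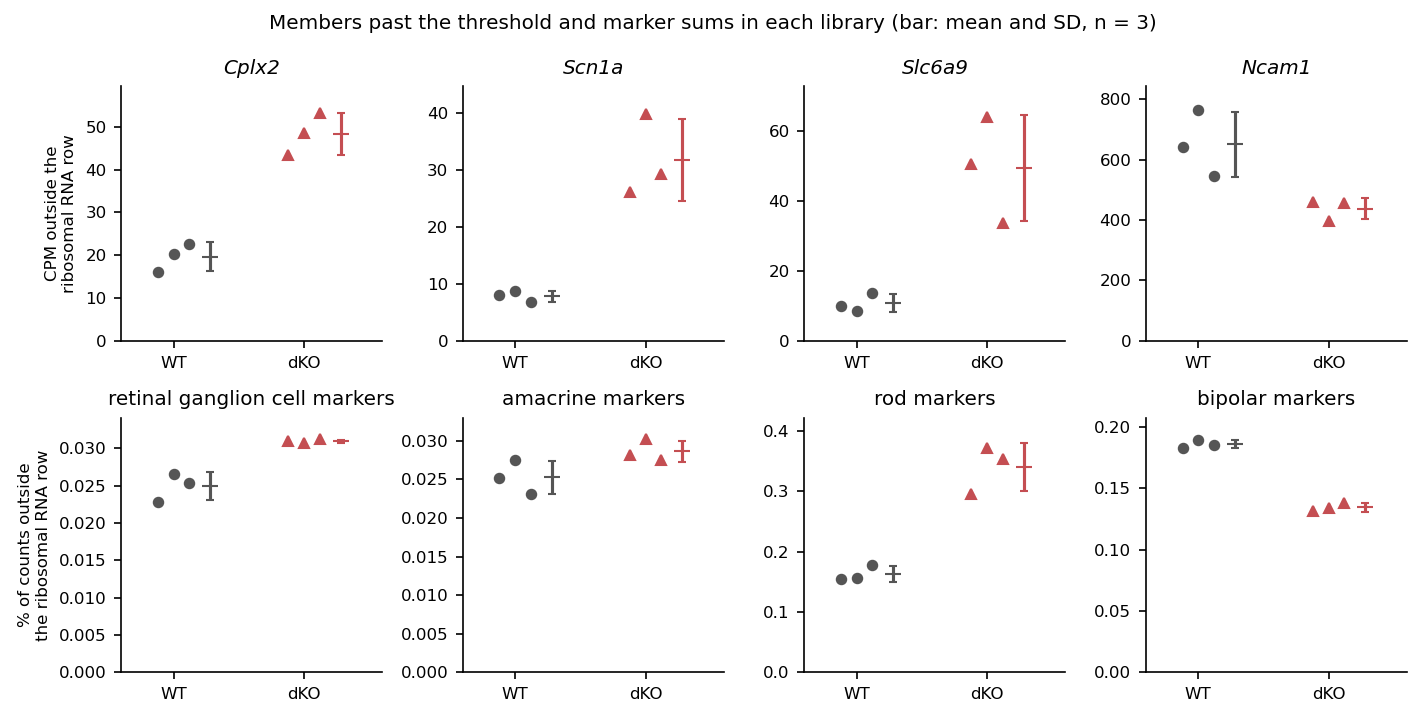
Upper row, CPM outside the ribosomal RNA row of Cplx2, Scn1a, Slc6a9 and Ncam1. Lower row, summed markers of 4 cell types as a percent of counts outside that row, each in the 3 WT (circles) and 3 dKO libraries (triangles) with mean and SD. Ncam1 and the bipolar markers are lower in all 3 dKO libraries, and the other 6 panels are higher in all 3. Amacrine marker sums barely separate, reaching 0.0275% in WT and starting at 0.0276% in dKO. RGC marker sums overlap between the groups once Nefl is left out.

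Cell type markers moved between the groups beside these genes. Of 9 tested rod markers 6 passed as higher (among them Gnat1, Sag, Pde6a, Pde6b and Prph2), and the 10 in the list summed to 0.155% to 0.177% of counts outside the ribosomal RNA row for WT against 0.296% to 0.371% for dKO. Of 9 tested bipolar markers 4 passed as lower (Trpm1, Prkca, Grm6 and Gpr179). The 10 in the list summed to 0.183% to 0.189% and 0.131% to 0.138%. Of 4 tested RGC markers, Nefl alone passed, as higher, while the 2 most abundant, Thy1 (-0.073 ± 0.168, SE) and Isl1 (-0.65 ± 0.23), which is also in the bipolar list, did not, and Pou4f2 and Pou4f3 had no count in WT. The 9 amacrine markers, of which only Pax6 could be tested and did not pass (edgeR adjusted p = 0.967), summed to 0.0231% to 0.0275% and 0.0276% to 0.0302%. These groups barely separate, and Pax6 gave 304 of the 323 WT counts and 647 of the 750 dKO counts. Slc18a3 and Th were at 0 in all libraries, and Calb2, the next most abundant, had 11 counts over WT and 59 over dKO. Horizontal cell markers summed to 7 counts over WT and 24 over dKO, led by Calb1 and Onecut2, with Onecut1 at 0. Cone markers were at 0.0122% to 0.0150% and 0.00611% to 0.00993%, with 1 of the 2 tested (Gnat2) lower and the other (Gngt2) not past the threshold. The part of any of these cell types in the changes of the members was not tested, and in bulk libraries fewer cells of a type and less RNA per cell cannot be told apart.

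Markers of non-neuronal cells gave single calls or none. Of 10 Müller glia and astrocyte markers tested, led by Glul and Clu, 1 (Gfap) was higher, as was 1 (Lyz2) of 9 microglia and macrophage markers, led by Ctss and Csf1r. None of 5 endothelial and mural markers, led by Kdr and Rgs5, and neither of 2 oligodendrocyte markers, Cnp and Mbp, passed, and Mog was at 0. Of 3 T and NK cell markers tested, 1 (Gzma) was lower, while the most abundant, Lck and Cd3g, did not pass.

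A further 90 genes of the same pathways, 30 each of release machinery, voltage-gated channels, and transmitter receptors and transporters, gave 1 call in each direction. In all, 42 could be tested, of which 1 rose and 1 fell, with a median log2 fold change of 0.00032. Slc1a2, a glutamate uptake transporter, fell from 627, 644 and 576 CPM to 446, 492 and 489 (log2 fold change -0.39 ± 0.10, SE, edgeR adjusted p = 0.0119). That call was lost on leaving out WT replicate 1 (adjusted p = 0.0769), WT replicate 2 (0.0708) or dKO replicate 1 (0.0597), and the adjusted p was 0.0556 with DESeq2 and 0.0713 without the low-count filter, and its fold change was positive (0.83) when scaled by library totals. None of the 19 release genes tested passed with edgeR. Of these 19, 6 had an unadjusted p under 0.05, a larger share than the 12.5% of all genes tested, and the difference was not tested. The smallest p belonged to Rims1 (0.86 ± 0.28, adjusted p = 0.0916), an active zone scaffold, and Unc13b (-0.33 ± 0.12, 0.155), a vesicle priming factor.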

How the data were processed

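The authors deposited 1 table of whole-number read counts for Ensembl genes in 6 libraries, with no normalization applied. Libraries were made from total RNA of sorted cells with a stranded kit, per the labels' protocols. STAR 2.7.0d, DESeq2 1.22.2 and GRCm38 are named, per the submitters' processing notes; the sources used here give no counting program, strand setting or annotation. Genes were matched by symbol, and positions and exon lengths came from GENCODE M21 (GRCm38). The same-named Grik2 rows were resolved by biotype. Overlapping genes, and near-identical copies, are uncertain.

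The low-count filter was filterByExpr at a minimum count of 10 and a minimum total of 15. The 8444 genes left were tested in edgeR 4.0.16 under R 4.3.3 (TMM scaling, two-sided quasi-likelihood test, group alone in the model), with Benjamini-Hochberg adjustment over all of them. A standard error is the fold change on the log2 scale over the root of its F statistic. CPM and shares use counts outside the ribosomal RNA row. Ratios of low genes use summed counts with exact binomial intervals (scipy 1.17.1), so dKO replicate 3, the deepest library, weighs most in them. Steps were tested on simulated data. Figures used matplotlib 3.10.9.

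The members, gene lists and alternatives were chosen with earlier results of these data known. Every member is named; of each other pathway list the called genes or else the 2 of smallest p, and of each marker list the 2 most abundant, except for a few genes that are not reported here. Alternatives were other scalings, filters and tests (DESeq2 1.42.0, limma 3.58.1), the replicate block, thinning, and each library left out.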

Additional observations from a re-analysis of the deposited data

How the results depend on the processing

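Scaling by library totals moved the median of all genes tested from -0.0007 to 1.21 on the log2 scale and left 3 higher and 0 lower genes, with 0 members and 0 other pathway genes in either direction. Under it the fold changes of Stx3 (0.80), Vamp1 (0.99), Vamp2 (0.80), Syp (1.06), Kcna2 (1.22), Gria2 (0.82), Grin2b (0.76) and Ncam1 (0.65) turned positive. With library totals as the denominator, the log2 ratio of summed shares was 1.22 for all members, 1.02 for SNAREs, 1.47 for calcium sensors and complexins, 1.35 for vesicle proteins, 2.21 for sodium channels, 1.43 for potassium channels, 1.35 for AMPA receptors, 1.23 for NMDA receptors, 2.69 for inhibitory genes and 0.63 for Ncam1, against 0.036, -0.19, 0.30, 0.18, 1.07, 0.063, 0.092, 0.15, 1.77 and -0.57 outside the ribosomal RNA row. The row takes 64.2% of dKO replicate 3 and more of the others, which sets these values.

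DESeq2 called 26 genes in each direction (62 higher and 100 lower in edgeR), 1 higher member in place of 3, and 0 other pathway genes in either direction. Leaving out 1 library gave 29 to 71 higher and 61 to 115 lower genes, 1 to 4 higher members (1 without WT replicate 1), 1 lower member in each case, and 0 to 1 other pathway genes in each direction. Other pathway genes higher were 2 without the ribosomal RNA row and with the CPM filter and 0 with dKO replicate 3 thinned, and those lower were 0 without a filter.

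Without 1 library at a time, fold changes near 0 changed sign: Snap25 ran from -0.012 to 0.28, Vamp1 from -0.29 to 0.027, Syt1 from -0.026 to 0.038, Sv2b from -0.0099 to 0.24, Cplx4 from -0.14 to 0.30, Kcna2 from -0.37 to 0.095 and Gria1 from -0.045 to 0.30. None of these was called in any of these fits. The replicate block gave 3 higher members and 1 lower member, as without it, and 58 higher and 100 lower genes. The labels give the libraries the same numbers in both groups but no pairing, and deviations of same-numbered libraries correlated by only 0.026, 0.013 and 0.029. Depth limits every member below about 10 counts per library, 16 of which were not tested.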
